A study of Homo sapiens with 6 samples.

Results

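The genes described here encode the machinery that copies DNA once per cell cycle. They number 52 of the 62700 gene IDs in the deposited table and were taken from a list of symbols. The list covers origin recognition, licensing, the replicative helicase, the sliding clamp and its loader, the polymerases, nucleotide supply and regulators of S phase. It and the lists compared with it below were chosen with earlier results of these data known. Counts over them describe these data and are not independent evidence. The RNA came from A549, a long-used cell line made from a human lung adenocarcinoma and epithelial in type, grown in RPMI-1640 with serum. The tested cells, sgH2AC19, carry a guide RNA against H2AC19, a histone H2A gene, and are described as knockout derivatives (3 libraries); the comparison cells, sgControl, carry a control guide and are labelled wild type (3 libraries). All libraries share the line and the culture conditions; whether the sgH2AC19 cells were a clone or a pool, and whether replicates were separate cultures, is not given in the sources used here, so p-values rest on differences among libraries that may be purely technical.

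Values are FPKM, fragment numbers scaled by gene length and by the size of the library. The read total of each library, worked out from the steps between low FPKM values, ran from 35681162 to 45738439 per library, and the least covered of the 50 replication genes tested, POLE2, had 313 reads in its lowest library, so that counting error was at most 5.65% of a value. H2AC19 was at 0 FPKM throughout, as was its near-identical copy H2AC18, so the target could not be used to check the labels. As the epithelial label requires, 5 of 5 epithelial markers (KRT8, KRT18, KRT19, EPCAM and CDH1) were above 1 FPKM in every library, with a summed level of 753 to 790 FPKM in sgH2AC19 and 586 to 622 FPKM in sgControl (KRT19 fell and the other 4 rose). All 5 endothelial and all 5 leukocyte markers stayed below 1 FPKM in every library. Of 6 fibroblast markers 4 were below 1 FPKM throughout. The list summed to 5.29 to 6.07 FPKM in sgH2AC19 and 3.38 to 3.86 FPKM in sgControl, with COL1A1 and LUM called up. COL1A1 was at 1.30, 1.34 and 1.53 FPKM in sgH2AC19 and 0.585, 0.711 and 0.627 FPKM in sgControl. It met the minimum for testing (1 FPKM in 3 libraries) only through the group where it was high, which limits its call. The part of this list in the results below was not tested. In a principal component analysis of the tested genes the first axis (53.7% of the variance) divided sgH2AC19 from sgControl, and on the second (18.2%) sgH2AC19 replicate 3 stood apart from replicates 1 and 2 of its group.

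DNA replication starts at origins marked by the origin recognition complex. In G1, CDC6 and CDT1 load the ring-shaped MCM2-7 helicase there, a step called licensing, which geminin later blocks so that no origin fires again. At the onset of S phase CDC45 and the GINS complex join MCM2-7 to form the active helicase, after which primase, polymerases, the clamp PCNA and its loader RFC follow at the fork. Many of these genes are transcribed late in G1 under E2F transcription factors. In bulk RNA a larger share of cells in S phase and more RNA per cell in S phase cannot be told apart.

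Replication genes called between the groups were all higher in sgH2AC19. Of the 52 genes, 50 had at least 1 FPKM in at least 3 libraries and were tested, and 14 of them rose in sgH2AC19 while 0 fell (adjusted p under 0.05 in a limma fit of log2(FPKM + 1), adjusted by Benjamini-Hochberg). That is 28.0% called up, beside 12.0% of all 12871 genes tested that were called up and 11.0% called down. At an unadjusted p under 0.05 the counts were 27 up and 0 down, beside 18.6% of all genes up and 18.9% down, and voom on recovered reads called 18 up and 0 down, beside 14.1% of all genes up. The fold changes were small. The median log2 fold change of the 50 was 0.17, against −0.01 over all genes tested, and the largest was 0.45; 45 of the 50 (90.0%) had a value above 0, as did 48.8% of all genes. In 27 of the 50 (54.0%) all sgH2AC19 libraries lay above all sgControl libraries, beside 21.5% of all genes, and 1 gene, ORC4, had them all below, beside 21.7% of all genes. Groups that did not overlap, in either direction, made up 43.2% of all genes. The count of rises depended on single libraries: it was 7 without sgControl replicate 2, 8 without sgControl replicate 1 and 9 without sgH2AC19 replicate 2, and the share of all genes called up was then 7.15%, 7.63% and 8.1%. With no filter on low values it was 7, beside 2.44% of all genes.

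The 14 called genes were ORC3, ORC6, CDC6, GMNN, MCM6, MCM7, GINS4, RFC2, RFC5, PRIM1, RRM1, RRM2, TIMELESS and DTL. Of these 7 kept their call in each of the 6 fits that left out 1 library and under every other setting tried: ORC6, CDC6, GMNN, RRM1, RRM2, TIMELESS and DTL. The other 7 lost it in at least 1 of the 6 fits. In GENCODE 29, exons of GINS4 (23.6% of bases), RFC5 (10.6%) and MCM7 (8.94%) overlap genes on the other strand; whether the authors' counting used strand is not given in the sources used here, so reads of such partners could be mixed.

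**Figure D1:**
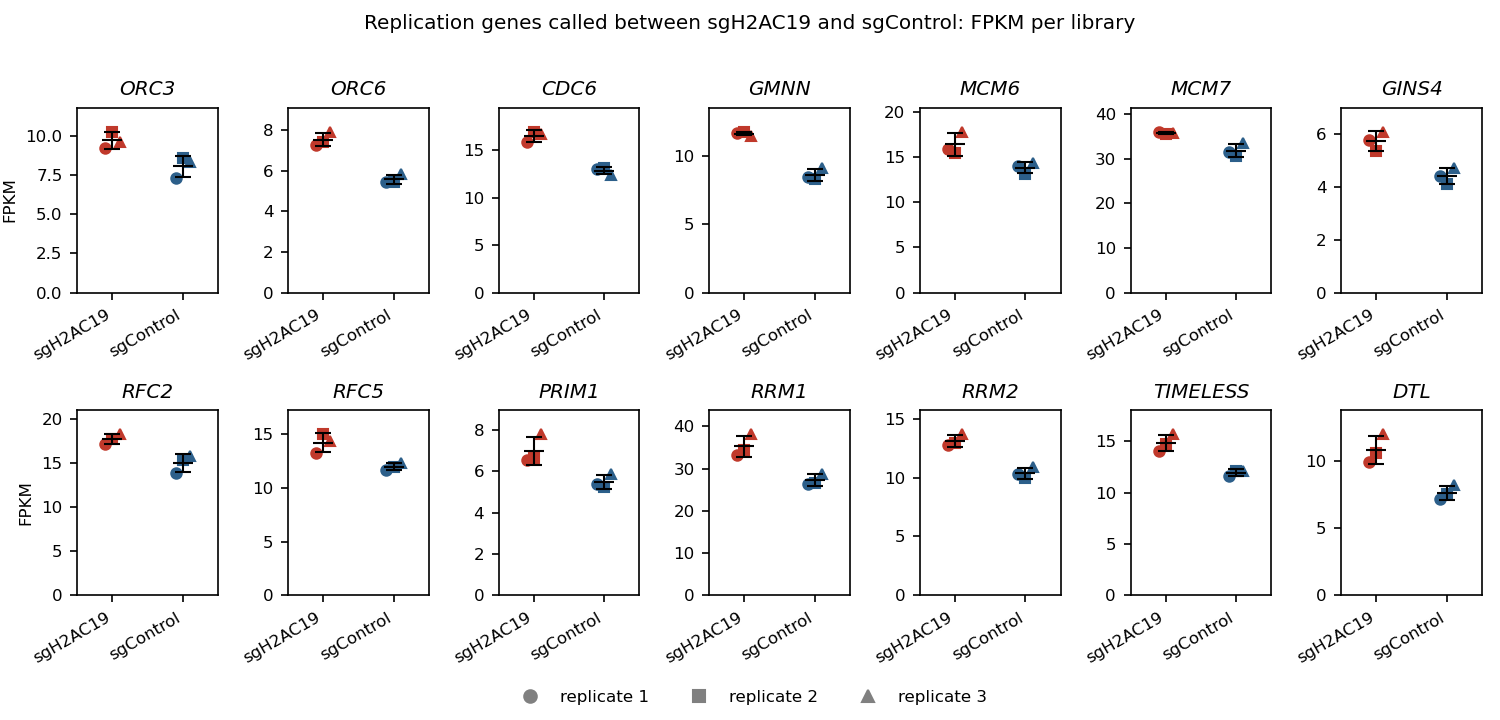
FPKM (y axis, from 0) of the 14 called replication genes in the sgH2AC19 libraries (red) and the sgControl libraries (blue); symbols mark the replicate number, and black bars the mean and SD (n = 3 per group). In each panel the 3 sgH2AC19 libraries lie above the 3 sgControl libraries, and the means are higher by 12.6% (MCM7) to 41.8% (DTL).

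**Figure D2:**
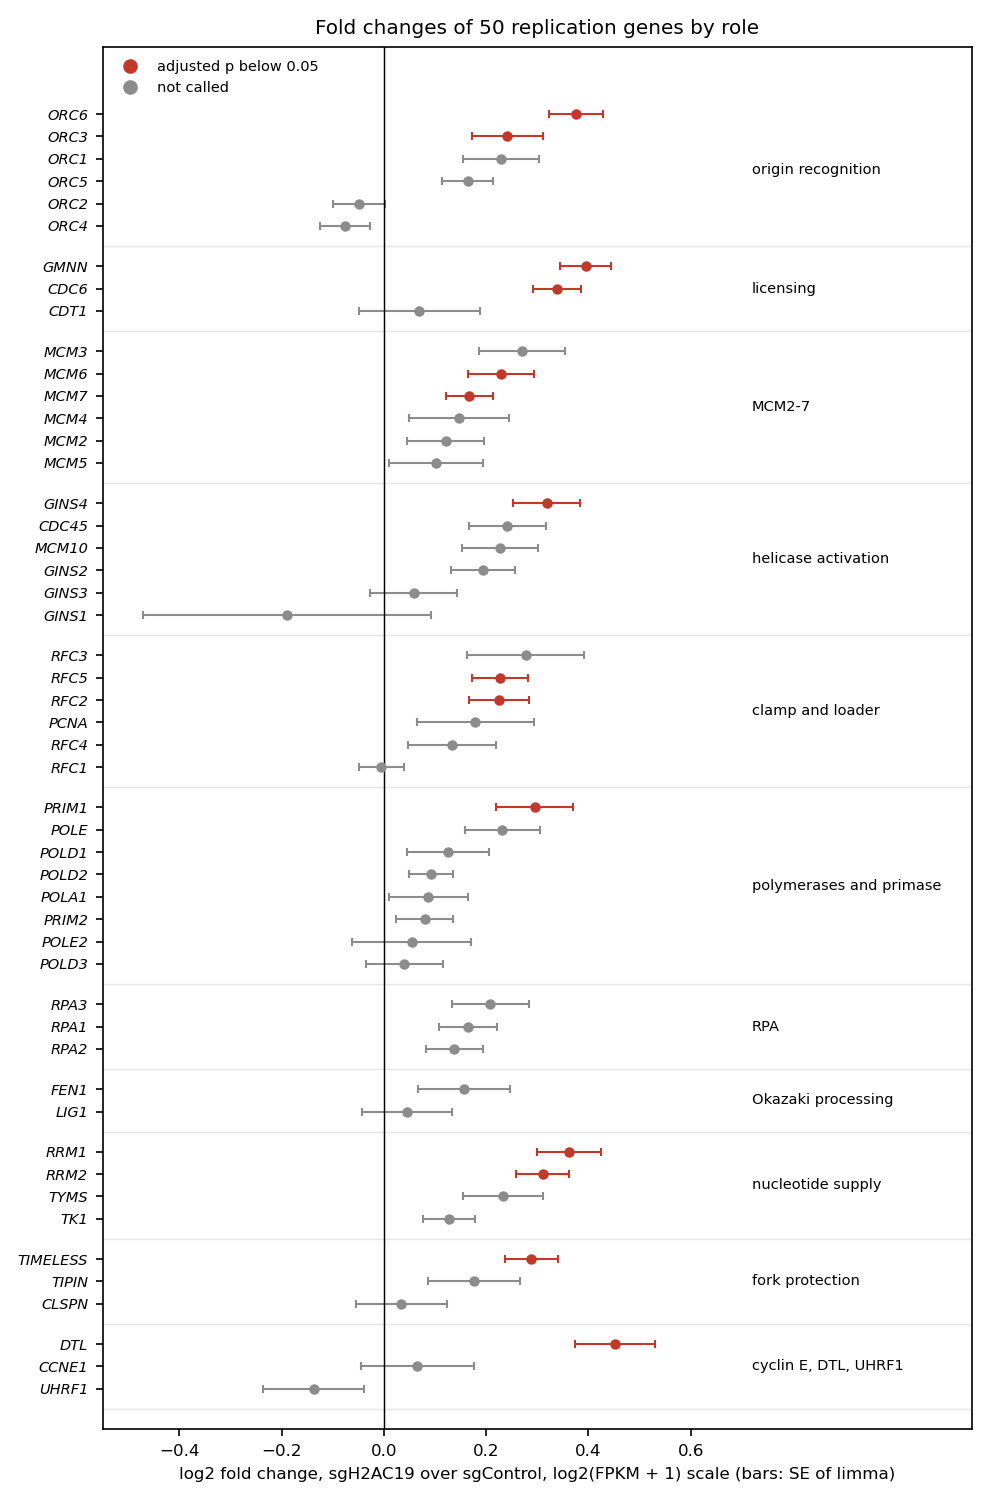
Log2 fold changes (sgH2AC19 over sgControl, log2(FPKM + 1) scale, x axis) with SE for the 50 tested replication genes, grouped by role (y axis); red points passed the adjusted p threshold. All but 5 points lie to the right of 0, and no called point lies to the left.

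The origin recognition complex binds DNA as a ring of ORC1 to ORC5 with ORC6 attached. Of its 6 genes, 2 rose (33.3%, beside 12.0% of all genes called up). Each role holds few genes, so counts within a role are a description only. ORC6 (ENSG00000091651; GENCODE 29 on GRCh38, chr16:46689643-46698394, plus strand) was at 7.26, 7.42 and 7.91 FPKM in sgH2AC19 replicates 1 to 3, against 5.44, 5.45 and 5.83 FPKM in sgControl replicates 1 to 3. The groups did not overlap, and the log2 fold change was 0.37 (SE 0.0527, adjusted p = 0.00375). ORC3, a core subunit, was at 9.21, 10.2 and 9.62 FPKM in sgH2AC19, against 7.29, 8.55 and 8.33 FPKM in sgControl. It was called (0.24, SE 0.0689, adjusted p = 0.0436) but lost its call in all 6 fits without 1 library. ORC5 had the highest level of the complex, 13.0, 13.1 and 12.4 FPKM in sgH2AC19 and 11.4, 10.8 and 11.8 FPKM in sgControl. The groups were separate, with a log2 fold change of 0.16 and an adjusted p of 0.0512; it was called with median-ratio scaling (0.0382) and without sgH2AC19 replicate 3 (0.0346). ORC1, the subunit known to be degraded after S phase begins, was also separate, at 4.77 ± 0.274 FPKM in sgH2AC19 and 3.94 ± 0.41 FPKM in sgControl (SD, n = 3 each), but was not called (adjusted p = 0.0621) except without sgControl replicate 3 (0.0478) among the fits that left out 1 library. ORC2 and ORC4, at 9.48 ± 0.449 and 4.61 ± 0.0798 FPKM in sgH2AC19 and 9.83 ± 0.259 and 4.91 ± 0.197 FPKM in sgControl, had log2 fold changes of −0.05 and −0.08 and were not called.

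Among the licensing genes, the loader CDC6 and the inhibitor GMNN rose while the second loader CDT1 was not called. GMNN (ENSG00000112312; chr6:24774931-24786099, plus strand), which encodes geminin, the protein that binds CDT1 and stops relicensing, was at 11.7, 11.8 and 11.5 FPKM in sgH2AC19, against 8.46, 8.33 and 9.18 FPKM in sgControl. CDC6 (ENSG00000094804; chr17:40287633-40304657, plus strand), an ATPase that helps to load the helicase, was at 15.8, 16.9 and 16.7 FPKM in sgH2AC19, against 13.0, 13.1 and 12.4 FPKM in sgControl. Neither gene's groups overlapped, and the log2 fold changes were 0.39 for GMNN (SE 0.0497, adjusted p = 0.00252) and 0.34 for CDC6 (SE 0.0467, adjusted p = 0.00358). CDT1 was at 5.95, 5.04 and 6.95 FPKM in sgH2AC19 and 5.48, 4.95 and 6.49 FPKM in sgControl. Its values overlapped, replicate 3 was the highest and replicate 2 the lowest in each group, and the log2 fold change was 0.07 (SE 0.119, adjusted p = 0.712).

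The 6 subunits of the MCM2-7 helicase, which are assembled in equal numbers, all had log2 fold changes above 0, from 0.10 to 0.27. Over all genes, 48.8% had a value above 0. Of the 6, 2 were called (33.3%, beside 12.0% of all genes called up). Their FPKM were unequal: MCM7 had the highest mean over all libraries, 33.8 FPKM, which was 5.97 times that of MCM5, the lowest at 5.66 FPKM. A ratio between genes depends on the gene lengths used. The lengths that gave whole reads were 4960 bases for MCM7 and 7268 bases for MCM5. Whether these match the transcripts present was not tested, so the ratio does not show unequal numbers of subunit transcripts. MCM7 was at 36.0, 35.6 and 35.8 FPKM in sgH2AC19, against 31.4, 30.5 and 33.4 FPKM in sgControl (log2 fold change 0.17, SE 0.0457, adjusted p = 0.0381). MCM6 was at 15.9, 15.4 and 17.8 FPKM in sgH2AC19, against 14.0, 13.1 and 14.3 FPKM in sgControl (0.23, SE 0.0642, adjusted p = 0.0411). Both genes had separate groups, but MCM6 lost its call in 5 and MCM7 in 4 of the 6 fits without 1 library. MCM3 had the largest fold change of the ring, 21.5 ± 1.82 FPKM in sgH2AC19 and 17.7 ± 1.73 FPKM in sgControl, and was not called (0.27, adjusted p = 0.0554), but was with voom (0.0235) and without sgControl replicate 3 (0.0385). MCM2, MCM4 and MCM5 overlapped between the groups, with adjusted p-values from 0.287 to 0.462. The summed FPKM of the 6 genes were 96.9, 96.5 and 105 in sgH2AC19, against 86.0, 80.9 and 92.9 in sgControl, 14.8% higher on average.

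E2F factors, known to act on genes of this kind, bind words of the form TTTCCCGC, TTTCGCGC, TTTGCCGC or TTTGGCGC. These 4 words were searched on both strands in the 250 bases before each annotated transcript start in RefSeq (GRCh38.p14), where 45 of the 52 genes had an entry and MCM4, MCM5, GINS4, POLD3, RPA2, RPA3 and CCNE2 had none. Of the 45, 17 (37.8%) held such a word in at least 1 of their windows, as did 3.4% of all 27305 genes with an entry. The share was 38.5% among the 13 called genes with an entry and 35.5% among the 31 tested and not called. The word CCAAT, bound by NF-Y and common in promoters of cell cycle genes, was in 12 of the 13 called genes (92.3%), in 17 of the 31 not called (54.8%) and in 37.0% of all genes with an entry. A word in such a window is a match of letters and does not show that a factor bound there. Only exact words were searched, so a window without a word does not show that no such factor binds there. The MCM6 window is shown because it holds E2F words in 2 places, at 152 and 90 bases before the start; in each place TTTGGCGC on the gene's strand overlaps TTTCGCGC on the other strand (148 and 86 bases before the start). The RRM1 window is shown for a called gene with none of the 4 E2F words searched, whose CCAAT begins 28 bases before the start. The shorter sites are the E2F words of the other called genes that hold one. Capitals mark the words, and each sequence runs 5′ to 3′ on the strand of its gene.
MCM6 (chr2:135876444-135876693, minus strand): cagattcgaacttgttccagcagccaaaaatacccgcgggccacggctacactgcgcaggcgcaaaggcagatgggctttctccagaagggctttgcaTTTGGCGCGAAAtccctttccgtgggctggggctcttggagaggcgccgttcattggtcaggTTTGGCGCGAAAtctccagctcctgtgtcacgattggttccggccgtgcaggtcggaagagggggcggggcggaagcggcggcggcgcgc
RRM1 (chr11:4094435-4094684, plus strand): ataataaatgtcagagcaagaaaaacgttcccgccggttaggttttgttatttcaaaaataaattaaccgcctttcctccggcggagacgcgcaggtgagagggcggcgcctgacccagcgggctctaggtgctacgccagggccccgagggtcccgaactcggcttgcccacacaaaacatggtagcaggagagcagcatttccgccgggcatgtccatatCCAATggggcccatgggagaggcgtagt
ORC3 (chr6:87590115-87590138, plus strand): gagggcgcGCGGGAAAtcccgagt
GMNN (chr6:24775325-24775348, plus strand): gggtcggtTTTGGCGCgctctcac
MCM7 (chr7:100101569-100101592, minus strand): ctcggaccGCGGGAAAcccggcgc
MCM7 (chr7:100101391-100101414, minus strand): gggcgacgTTTCGCGCcaatttcg
DTL (chr1:212035732-212035755, plus strand): gacgtcagTTTGGCGCggagtttg

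Of the genes that turn the loaded ring into an active helicase, GINS4 rose and GINS1 varied most among the sgH2AC19 libraries. GINS4, a subunit of the 4-part GINS complex, was at 5.78, 5.36 and 6.10 FPKM in sgH2AC19, against 4.41, 4.11 and 4.71 FPKM in sgControl. The groups were separate (log2 fold change 0.32, SE 0.0653, adjusted p = 0.0146), and the call was lost without sgControl replicate 2 (0.0548). GINS1, another subunit, was at 2.59, 3.02 and 7.20 FPKM in sgH2AC19, against 4.69, 4.38 and 4.74 FPKM in sgControl. Its sgH2AC19 replicates 1 and 2 were below all sgControl libraries, and replicate 3 was above them, 2.78 and 2.39 times replicates 1 and 2. Over all libraries it was not called (log2 fold change −0.19, SE 0.281, adjusted p = 0.664), and without sgH2AC19 replicate 3 it was called down (−0.56, SE 0.0688, adjusted p = 0.0029). GINS2 and CDC45 were separate between the groups, at 4.97 ± 0.229 and 6.44 ± 0.171 FPKM in sgH2AC19 and 4.22 ± 0.315 and 5.32 ± 0.636 FPKM in sgControl, with adjusted p-values of 0.0608 and 0.057; CDC45 was called without sgControl replicate 3 (0.0205). MCM10, a factor needed to activate the helicase and the most abundant of this group, was at 6.16, 6.13 and 7.28 FPKM in sgH2AC19, against 5.41, 5.08 and 5.76 FPKM in sgControl (0.23, adjusted p = 0.0668), and was called with voom (0.0399). GINS3, the remaining subunit, was the least abundant and overlapped (log2 fold change 0.06).

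The clamp PCNA, a ring that tethers polymerases to DNA, was by far the most abundant transcript of the list. It was at 118, 116 and 149 FPKM in sgH2AC19 and 115, 99.5 and 123 FPKM in sgControl. The groups overlapped, with replicate 3 the highest in each, and the difference was not called (log2 fold change 0.18, SE 0.114, adjusted p = 0.298). Of the 5 subunits of the clamp loader RFC, 2 rose, beside 12.0% of all genes called up. RFC2 was at 17.1, 17.7 and 18.2 FPKM in sgH2AC19, against 13.9, 15.3 and 15.8 FPKM in sgControl (0.22, SE 0.0579, adjusted p = 0.031). RFC5 was at 13.3, 15.0 and 14.4 FPKM in sgH2AC19, against 11.6, 12.0 and 12.4 FPKM in sgControl (0.23, SE 0.0554, adjusted p = 0.0261). Their groups did not overlap, but RFC2 lost its call in 5 and RFC5 in 4 of the 6 fits without 1 library. RFC3 was spread widely in sgH2AC19, at 13.9, 16.0 and 19.5 FPKM, against 13.4, 12.3 and 14.3 FPKM in sgControl (0.28, SE 0.115, adjusted p = 0.123, and 0.047 without sgH2AC19 replicate 1). RFC1, the large subunit, differed by −0.01 (SE 0.0436), and RFC4 by 0.13, neither of them called.

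Of the 8 tested genes for polymerases alpha, delta and epsilon and for primase, which lays the RNA primers, 1 was called (12.5%, beside 12.0% of all genes), and their median log2 fold change was 0.09. PRIM1, the catalytic primase subunit, was at 6.54, 6.65 and 7.80 FPKM in sgH2AC19, against 5.38, 5.25 and 5.89 FPKM in sgControl (0.29, SE 0.0745, adjusted p = 0.0293). The groups were separate and the call was lost in 3 of the 6 fits without 1 library; in GENCODE 29, 16.2% of its exon bases are shared with genes on the same strand (NACA and AC117378.1) and 21.6% with genes on either strand, so its reads may be uncertain. POLD2, the accessory subunit of polymerase delta and the most abundant of these genes, was at 11.2, 11.0 and 11.1 FPKM in sgH2AC19, against 10.5, 10.1 and 10.5 FPKM in sgControl. All sgH2AC19 values were above, by 7.19% on average, without a call (adjusted p = 0.159). POLE, the catalytic subunit of the leading-strand polymerase, was at 5.39 ± 0.514 FPKM in sgH2AC19 and 4.44 ± 0.31 FPKM in sgControl (0.23, adjusted p = 0.061), and was called with voom (0.0228). PRIM2 had separate groups too, with a log2 fold change of 0.08, whereas POLA1, POLD1, POLD3 and POLE2 overlapped and had values from 0.04 to 0.13. POLA2, the second subunit of polymerase alpha, stayed between 0.368 and 0.478 FPKM in the 6 libraries and was not tested, while POLA1, its partner, was at 3.28 to 4.17 FPKM. In GENCODE 29, 35.1% of the exon bases of POLA2 lie in another gene on the same strand; whether this lowered its FPKM was not tested.

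The 3 subunits of RPA, the protein that coats single-stranded DNA at the fork, had log2 fold changes of 0.14 to 0.21 and did not pass the threshold. RPA1, the largest and most abundant, was at 23.2, 23.1 and 24.5 FPKM in sgH2AC19, against 21.2, 19.5 and 22.3 FPKM in sgControl (log2 fold change 0.16, SE 0.057, adjusted p = 0.0773, and 0.0489 with voom). RPA2 and RPA3 had values of 0.14 and 0.21, and of the 3 only RPA2 overlapped between the groups. FEN1, the nuclease that trims Okazaki fragments, was at 23.9, 20.4 and 24.8 FPKM in sgH2AC19 and 21.3, 18.5 and 22.0 FPKM in sgControl, and LIG1, the ligase that joins them, averaged 3.18 ± 0.366 FPKM in sgH2AC19 and 3.05 ± 0.331 FPKM in sgControl. Both overlapped, with adjusted p-values of 0.244 and 0.751.

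Nucleotide supply was the role in which all 4 listed genes were separate between the groups, with sgH2AC19 above, beside 21.5% of all genes. The 12 nucleotide enzymes tested outside the list did not share this. Of these, 3 lay all above and 3 all below, and their median log2 fold change was −0.0534. RRM1 (ENSG00000167325; chr11:4094707-4138876, plus strand), the large subunit of ribonucleotide reductase, which makes deoxynucleotides, was at 33.3, 34.5 and 38.1 FPKM in sgH2AC19, against 26.3, 26.5 and 28.8 FPKM in sgControl. RRM2 (ENSG00000171848; chr2:10120698-10131419, plus strand), the small subunit that limits the enzyme in S phase, was at 12.8, 12.9 and 13.7 FPKM in sgH2AC19, against 10.3, 9.95 and 10.9 FPKM in sgControl. Both rose, with log2 fold changes of 0.36 (SE 0.0634, adjusted p = 0.0085) and 0.31 (SE 0.0517, adjusted p = 0.00712); 20.2% of the exon bases of RRM2 are shared with another gene on its strand in GENCODE 29. TK1, the thymidine kinase of cycling cells, was the most abundant of the 4, at 37.6, 35.9 and 38.1 FPKM in sgH2AC19, against 32.0, 35.0 and 34.9 FPKM in sgControl, and was not called (0.13, adjusted p = 0.112). TYMS, the thymidylate synthase, averaged 6.09 ± 0.229 FPKM in sgH2AC19 and 5.05 ± 0.614 FPKM in sgControl (0.23, adjusted p = 0.0708, and 0.041 without sgControl replicate 3); it shares 46.6% of its exon bases with genes on the other strand.

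Among the fork protection genes TIMELESS rose and its partner TIPIN was not called. TIMELESS (ENSG00000111602; chr12:56416373-56449403, minus strand), which travels with the fork and links the helicase to the polymerases, was at 14.1, 14.7 and 15.7 FPKM in sgH2AC19, against 11.6, 12.1 and 12.2 FPKM in sgControl. The groups were separate (log2 fold change 0.29, SE 0.0522, adjusted p = 0.00949). TIPIN, which forms a complex with TIMELESS, was at 8.96 ± 0.675 FPKM in sgH2AC19 and 7.84 ± 0.979 FPKM in sgControl (0.18, adjusted p = 0.198), and CLSPN, the checkpoint adaptor claspin, at 2.21 ± 0.292 FPKM in sgH2AC19 and 2.13 ± 0.234 FPKM in sgControl (0.03).

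DTL showed the largest fold change of the 50 genes tested. DTL (ENSG00000143476; chr1:212035553-212107400, plus strand), the substrate receptor of the ubiquitin ligase that destroys CDT1 on replicating DNA, was at 9.89, 10.6 and 12.0 FPKM in sgH2AC19, against 7.18, 7.50 and 8.21 FPKM in sgControl. The groups were separate, with replicate 3 the highest in each, and the mean was 41.8% higher in sgH2AC19 (log2 fold change 0.45, SE 0.0776, adjusted p = 0.00794). The cyclin E genes, which activate CDK2 at the start of S phase, were not called: CCNE1 averaged 8.07 ± 1.33 FPKM in sgH2AC19 and 7.63 ± 0.724 FPKM in sgControl, and CCNE2 stayed between 0.489 and 0.838 FPKM in the 6 libraries and was not tested. UHRF1, which brings the maintenance DNA methyltransferase to new DNA, had a fold change below 0, at 6.50 ± 0.8 FPKM in sgH2AC19 and 7.25 ± 0.854 FPKM in sgControl (log2 fold change −0.14, SE 0.0989, adjusted p = 0.351).

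**Figure D3:**
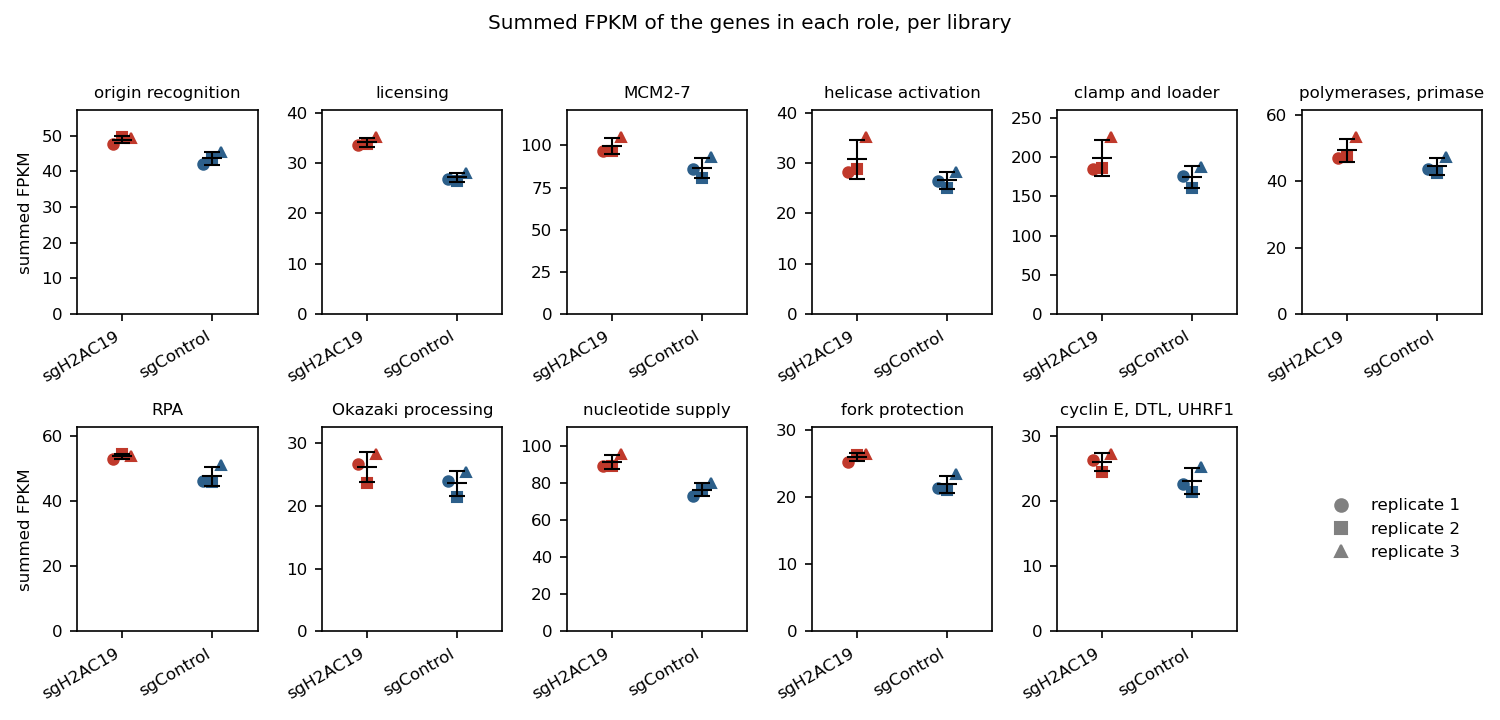
Summed FPKM (y axis, from 0) of the replication genes in each role for the sgH2AC19 libraries (red) and the sgControl libraries (blue), with mean and SD (n = 3 per group); untested genes are included. The mean sums were higher in sgH2AC19 by 10.8% (polymerases and primase) to 25.9% (licensing), and in 5 of the 11 roles the groups overlapped.

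Summed by role, the sgH2AC19 mean was above the sgControl mean in all 11 roles, by the largest share for licensing and the next largest for nucleotide supply (19.7%). The sum over all 52 genes was 659, 661 and 736 FPKM in sgH2AC19, against 588, 565 and 636 FPKM in sgControl. Its mean was 15.0% higher, at 685 FPKM in sgH2AC19 and 596 FPKM in sgControl, of which PCNA made up 128 and 112 FPKM. The roles whose groups overlapped were helicase activation, clamp and loader, polymerases and primase, Okazaki fragment processing, and the cyclin E, DTL and UHRF1 group. These sums are a description without a test.

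Levels of the replication genes also differed with the replicate number inside each group. Replicate 3 was the highest of the sgH2AC19 libraries for 34 of the 50 genes (68.0%) and the highest of the sgControl libraries for 44 (88.0%), where over all genes tested the shares were 29.2% and 35.5%. The median log2 difference from the sgControl mean was 0.15, 0.15 and 0.26 for sgH2AC19 replicates 1, 2 and 3. Above that mean lay 40, 39 and 47 of the 50 genes, beside 51.9%, 51.5% and 44.6% of all genes tested. Over all genes tested the medians were 0.0105, 0.00847 and −0.0273. All 3 medians of the replication genes were above 0, and that of replicate 3 was the highest. Of the 18 overlapping genes with a fold change above 0, sgControl replicate 3 was the highest sgControl library in 17. It was so in 44 of all 50, so this count does not tie the overlap to that library. All sgH2AC19 libraries lay above sgControl replicates 1 and 2 in 35 of the 50 genes. The count was 27 for sgControl replicates 1 and 3, and 28 for replicates 2 and 3. Shares over all genes were not counted for these pairs. The part of the library differences in the called genes was not tested. Called-up genes numbered 15 without sgControl replicate 3, beside 7.71% of all genes, and 12 without sgH2AC19 replicate 3, beside 14.1%. They numbered 8 and 7 without sgControl replicates 1 and 2, beside 7.63% and 7.15% of all genes. Without sgH2AC19 replicates 1 and 2 they numbered 11 and 9, beside 8.54% and 8.1%.

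**Figure D4:**
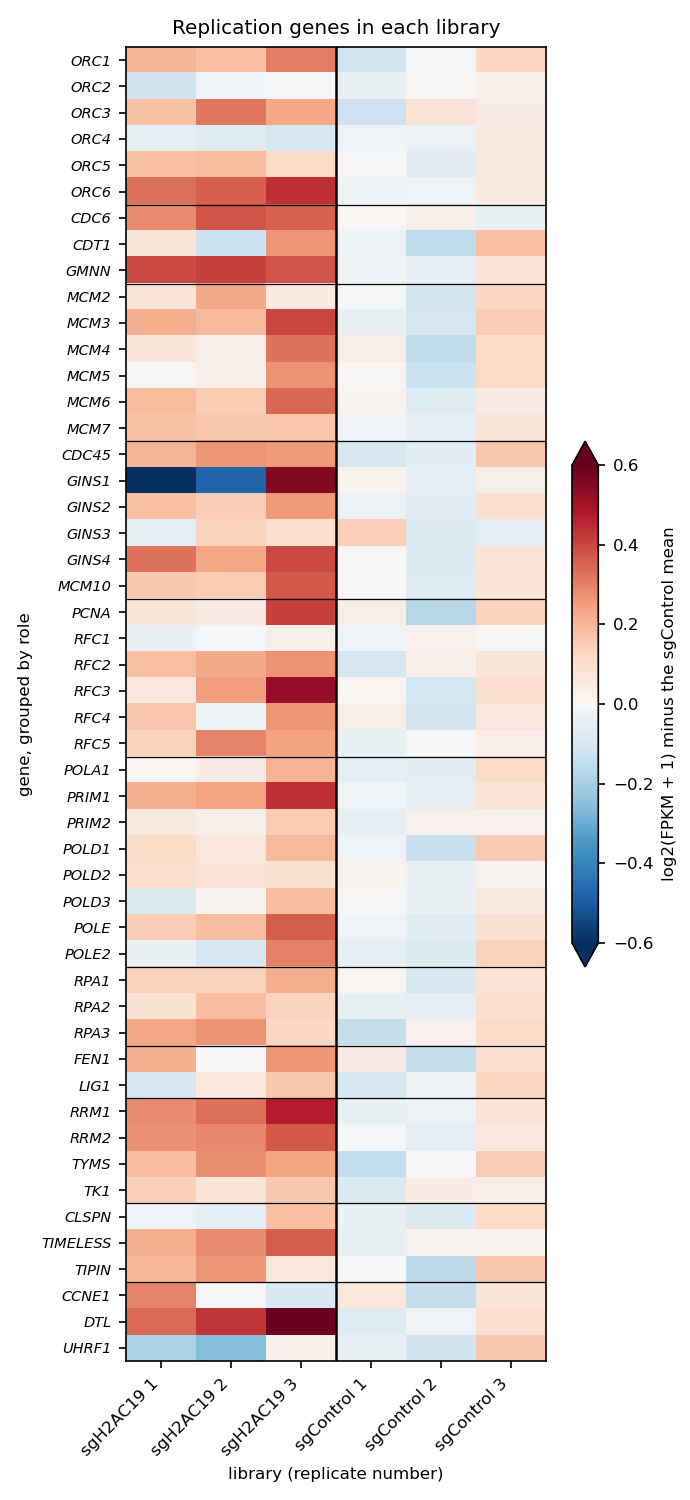
Log2(FPKM + 1) minus the sgControl mean (colour, cut at the ends of the scale) for the 50 tested replication genes (rows, grouped by role) in each library (columns). Most rows are red in the sgH2AC19 columns, more so in replicate 3, and sgControl replicate 3 is redder than the other sgControl columns; GINS1 is blue in sgH2AC19 replicates 1 and 2 and red in replicate 3.

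Replication factors outside the list were examined for comparison. Of 53 tested among 56 others (firing factors, further polymerase and clamp loader subunits, fork and chromatin factors, further nucleotide enzymes), 8 rose (15.1%, beside 12.0% of all genes) and 2 fell (3.77%, beside 11.0%), with a median log2 fold change of 0.08. The chaperone gene NASP, which carries histone H3, was at 14.8, 15.8 and 17.1 FPKM in sgH2AC19, against 11.5, 11.6 and 12.1 FPKM in sgControl (0.41, adjusted p = 0.00434). Other rises were CDCA7 (0.35, adjusted p = 0.00787) and TICRR, a firing factor that helps CDC45 to load (0.31, adjusted p = 0.0253). The 2 that fell were POLE4, a small subunit of polymerase epsilon, at 3.65 ± 0.0666 FPKM in sgH2AC19 and 4.92 ± 0.446 FPKM in sgControl (−0.35, adjusted p = 0.0107), and LRWD1, an ORC-associated protein gene, at 2.52 ± 0.085 FPKM in sgH2AC19 and 3.27 ± 0.162 FPKM in sgControl (−0.28, adjusted p = 0.0139). The 8 rises became 3 without sgControl replicate 1 or 2 and 4 without sgH2AC19 replicate 2, and the 2 falls became 4 without sgH2AC19 replicate 2 and 1 without sgControl replicate 1 or 3.

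Of 29 tested genes that govern entry into S phase, 8 rose (27.6%, beside 12.0% of all genes), 4 fell (13.8%, beside 11.0% of all genes) and 17 were not called, with a median log2 fold change of 0.09. MYBL2, a transcription factor of cycling cells, was at 31.1, 31.0 and 32.7 FPKM in sgH2AC19, against 19.7, 20.0 and 20.3 FPKM in sgControl (log2 fold change 0.63, SE 0.042, adjusted p = 0.000336). E2F1, an activator of the replication genes, was at 7.63, 7.14 and 8.28 FPKM in sgH2AC19, against 5.75, 5.33 and 6.23 FPKM in sgControl (0.36, SE 0.071, adjusted p = 0.0129), and its binding partner TFDP1 rose as well (0.42, adjusted p = 0.00866). CDKN1A, the CDK inhibitor p21, fell to 43.3, 45.1 and 48.1 FPKM in sgH2AC19, against 71.3, 77.8 and 67.5 FPKM in sgControl (−0.65, SE 0.0641, adjusted p = 0.0012). CCND1, the cyclin D1 gene that drives the G1 kinases, also fell, to 53.9, 53.5 and 56.3 FPKM in sgH2AC19, against 84.0, 84.3 and 89.6 FPKM in sgControl (−0.65, SE 0.0446, adjusted p = 0.000384). The inhibitor gene CDKN2C rose, at 3.06 ± 0.22 FPKM in sgH2AC19 and 1.84 ± 0.146 FPKM in sgControl (0.51, adjusted p = 0.00332). None of these groups overlapped, and the rises and falls included both activators and inhibitors of the step. The 8 rises became 5 without sgControl replicate 1 or 2 or sgH2AC19 replicate 1 or 2, and the 4 falls became 2 without sgH2AC19 replicate 2 or any 1 sgControl library.

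**Figure D5:**
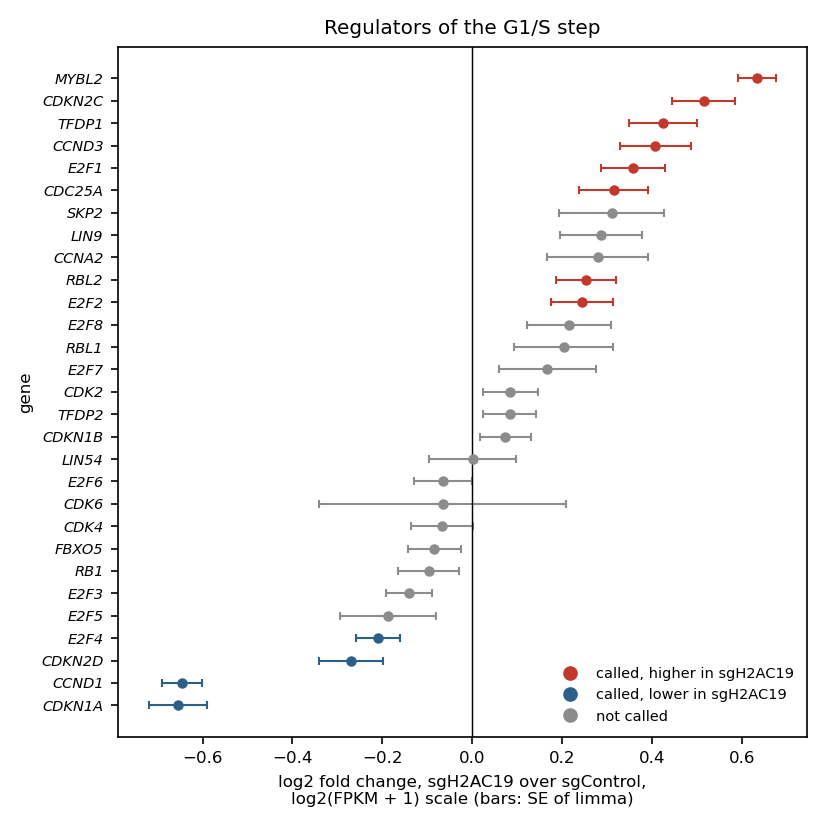
Log2 fold changes (sgH2AC19 over sgControl, log2(FPKM + 1) scale, x axis) with SE for 29 tested regulators of entry into S phase (y axis, ordered by value). MYBL2 lies furthest right at 0.63, and CDKN1A and CCND1 furthest left, both at −0.65.

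Genes of G2 and mitosis, set beside the replication genes, were called in 1 direction: 6 of 24 tested rose (25.0%, beside 12.0% of all genes) and 0 fell (beside 11.0%), with 11 and 0 at an unadjusted p under 0.05, voom calling 8 and 0, and a median log2 fold change of 0.15. The smallest adjusted p-values were those of the survivin gene BIRC5 (24.2 ± 0.616 FPKM in sgH2AC19 and 16.0 ± 0.813 FPKM in sgControl, 0.56, adjusted p = 0.000881), the kinetochore gene CENPF (0.39, adjusted p = 0.00505) and the cyclin gene CCNB2 (0.29, adjusted p = 0.0103). Whether the replication and mitosis genes differ in their change was not tested.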

How the data were processed

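The authors deposited a single table of FPKM, 1 column for each library, per the file headers. RNA was purified on Qiagen columns, and a SMARTer kit for mRNA was used to build libraries, per the labels' protocols; which aligner, counting tool and annotation were used is not stated there. The submitters' processing notes list the mouse builds GRCm38 and mm10, whereas all 62700 IDs matched human Ensembl genes. Columns written sgH2AC were taken as sgH2AC19 and those written sgNC as sgControl, with the number as replicate; 0 value columns were unused and no libraries were identical.

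FPKM were converted to log2(FPKM + 1), which understates changes of low genes, keeping genes that reached 1 FPKM in 3 or more libraries, and compared with limma 3.58.1 (R 4.3.3, trend, two-sided, Benjamini-Hochberg over all genes tested, threshold 0.05). Whole reads were recovered from FPKM and gene lengths (GENCODE 29, or the smallest length giving whole reads) for 12870 of 12871 genes, within 0.001 reads. The GENCODE 29 length gave them for 3759. For the others, RRM2 and PRIM1 among them, it did not, so overlaps given in GENCODE 29 may not hold for the annotation used. The gene step was tested on simulated data. Means ± SD are of FPKM (n = 3). Genes called most or least abundant were ranked by FPKM, which depends on the gene lengths used. Values in each library are given for called genes and the most abundant gene of each role; of the other lists, the called genes with the smallest adjusted p are named (up to 6 further replication factors, 5 regulators of entry into S phase and 3 mitosis genes), plus CDKN1A, E2F1 and MYBL2. One gene that this rule names is not reported here. Members and lists were chosen with earlier results of these data known. Alternatives were median-ratio and upper-quartile scaling, no filter, a mean of at least 1 FPKM, a pseudocount of 0.1, voom on recovered reads, the replicate number as a block, and leaving out each library. Counting errors cover counting only. Other steps used Python 3.11.15.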

Additional observations from a re-analysis of the deposited data

How the results depend on the processing

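The settings left the direction of every called replication gene as it was. With no filter on low values, 36938 genes were tested, and the counts were 900 up and 653 down over all genes. They were 7 up among the replication genes, 3 up among the other replication factors, and 3 up and 2 down among the regulators of entry into S phase. In that fit both the adjustment and the limma trend ran over more genes. The part of each in the fewer calls was not tested. Leaving out 1 library gave 904 to 1784 genes up and 609 to 1645 down over all genes. Among the replication genes it gave 7 to 15 up and 0 to 1 down (GINS1, without sgH2AC19 replicate 3). It gave 3 to 8 other factors up and 1 to 4 down, and 5 to 6 regulators up and 2 to 4 down. The cause of these shifts was not tested. MCM6 lost its call with median-ratio scaling and MCM7 with the replicate block. Of 741 values recomputed for single genes, 673 kept their direction and their side of the threshold, 39 lost the call, 16 gained it and 13 changed sign. Each sign change was in a gene that was not called, when 1 library was left out (GINS1 apart, which was called down in 1 of these fits), and the log2 fold changes over those fits ran from −0.0293 to 0.17 for CDT1, −0.559 to 0.0361 for GINS1, −0.0254 to 0.0124 for RFC1, −0.0336 to 0.103 for POLD3, −0.0697 to 0.132 for POLE2, −0.0137 to 0.113 for LIG1, −0.0395 to 0.0939 for CLSPN and −0.0508 to 0.145 for CCNE1. The median log2 fold change of all genes was −0.0066 with median-ratio and −0.00644 with upper-quartile scaling, against −0.00509 as deposited.

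Whether the replicate numbers pair the samples is not given in the sources used here, and correlations this small cannot decide it. Over all genes tested, deviations from the group means of same-numbered libraries correlated at 0.0524, 0.0346 and 0.0602. Each library correlated best with its own number, a hint from the data and not the design. Over the 50 replication genes the same correlations were 0.0255, 0.452 and 0.0808, and sgH2AC19 replicates 1 and 3 correlated better with another number (0.0886 and 0.148). With the replicate number as a block 17 replication genes rose and 0 fell (ORC1, MCM3, MCM10 and POLE gained the call, at adjusted p = 0.0461, 0.0156, 0.0396 and 0.0377), over all genes 1406 rose and 1323 fell, 10 other factors rose and 3 fell, 9 regulators rose and 3 fell, and 9 mitosis genes rose. Depth limited little, since every tested replication gene had 313 reads or more per library.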

Other observations

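GINS1 was among 39 of the 12871 genes tested (0.303%) whose FPKM in sgH2AC19 replicate 3 was at least 2 times that of each other sgH2AC19 library; for sgH2AC19 replicates 1 and 2 the same count was 37 and 23 genes, and for sgControl replicates 1, 2 and 3 it was 27, 34 and 17. No other replication gene was in any of the sgH2AC19 sets. CDK6, the kinase gene that partners the D cyclins, was likewise high in that library, at 5.38, 5.90 and 13.1 FPKM in sgH2AC19 and 8.04, 8.09 and 7.68 FPKM in sgControl. These genes were picked after their values had been seen, and no test was run.

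Of the listed CDK inhibitors, CDKN2A and CDKN2B, which A549 cells are known to have lost, were listed at 0 FPKM in every library except for 0.00651 FPKM of CDKN2A in sgControl replicate 2.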
